A study of Mus musculus with 6 samples.

Results

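The genes described here encode the proteins of the cytosolic ribosome and the factors that initiate translation or elongate the peptide chain. A probe was taken where its only platform symbol began with Rpl or Rps and a digit (Rps6k kinases excepted), with Rplp, with Eif or with Eef. Eif2ak2 was left out by the same rule. This gave 118 of the 16281 probes on the array and 112 of the 10698 genes with a single symbol: 69 ribosomal protein genes and 43 translation factor genes. The rule used names and no measured value. It also took in relatives whose role is more distant, such as the tissue-restricted paralogs Rpl3l and Rpl39l, the nucleolar Rpl7l1, the eIF4E transporter Eif4enif1, the synthetase-complex subunit Eef1e1 and the methyltransferases of elongation factor 1A.

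Total RNA came from RAW 264.7, a mouse macrophage cell line, named so in the sample titles, while the series title and part of the descriptions write RAW 264.4. Treated cells had lipopolysaccharide (LPS, 100 ng/ml) together with the serum protein that carries it to its receptor (LPS-binding protein, LBP, 100 pM) for 2 h. Control cells were cultured for 2 h without either agent, and the labels name no other agent and no genetic change in either group. Each of 6 arrays of a 2-colour platform carried both RNAs: 3 held the treated RNA in Cy5 (here the Cy5 arrays) and 3 held it in Cy3 (the swapped arrays), and each orientation had sets 1 to 3. Neither agent was analysed alone, so their effects cannot be told apart. The labels do not say whether the sets were separate cultures, and the p-values measure only the spread between sets, which may be technical.

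Every value below is a deposited log2 ratio, turned so that a positive value means more RNA in treated cells. No source states which channel was divided by which. Cy5 over Cy3 was taken as likely from the dye labels, and all 10 LPS-response genes used as a check (Tnf and Il1b among them, chosen with earlier results known) were positive on all 6 turned arrays. The median turned ratio of each array over all features tested lay between -0.0111 and 0.0111. Macrophage markers could not be read for presence, because a ratio has no level. Of the 7 tested, 2 were higher and 2 lower after treatment by the test described below, while the 15 tested markers of T cells, B cells, fibroblasts, endothelium and epithelium had means between -0.20 and 0.22. In whole cultures, fewer cells of a kind and less RNA per cell cannot be told apart.

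The ribosome has a small 40S subunit, which binds mRNA and reads codons, and a large 60S subunit, which joins amino acids and carries the acidic stalk that recruits elongation factors. Initiation factor eIF2 brings the first tRNA and is recharged by eIF2B, eIF4 proteins bind the cap and unwind the leader, and eIF3 and eIF1 proteins hold the small subunit in a scanning state. LPS signalling in macrophages is known to act on this machinery largely through phosphorylation, for instance of the cap-binding protein's inhibitors, which an mRNA ratio does not read. Many ribosomal protein mRNAs begin with a C followed by a run of pyrimidines, the feature through which the mTOR pathway is known to set their translation.

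That start could be looked up for 90 of the 112 genes in RefSeq's windows around annotated start sites (GRCm38.p6). The motif asked for was a C as the first transcribed base followed by 4 bases that were each C or T, on the transcribed strand only. It stood at 12 of 57 ribosomal protein genes (21.1%) and at 2 of 33 factor genes (6.06%), against 813 of all 27025 genes (3.01%). A gene counted if any of its annotated starts matched, and all genes here are those with a window, on the array or not. The stretches below run from 25 bases before the start to 20 bases into the transcript, with the pyrimidine run in capitals. Rpl14 and Rpl35a are shown because they were the only ribosomal protein genes of the 12 that had a ratio on every array, Rps6 because its phosphorylation is a standard readout of the same pathway, Eif3f and Eif2s3x because they were the 2 factor genes with the motif, and Eif4a2 (no capitals) as a factor that rose and lacked it.
Rpl14, chr9:120571492-120571536, plus strand: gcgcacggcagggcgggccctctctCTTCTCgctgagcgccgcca
Rpl35a, chr16:33056457-33056501, plus strand: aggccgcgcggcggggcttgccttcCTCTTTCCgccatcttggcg
Rps6, chr4:86857348-86857392, minus strand: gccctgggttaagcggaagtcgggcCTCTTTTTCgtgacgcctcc
Eif3f, chr7:108934390-108934434, plus strand: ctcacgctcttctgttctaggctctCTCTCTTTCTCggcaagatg
Eif2s3x, chrX:94212632-94212676, minus strand: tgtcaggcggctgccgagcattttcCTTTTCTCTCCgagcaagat
Eif4a2, chr16:23107443-23107487, plus strand: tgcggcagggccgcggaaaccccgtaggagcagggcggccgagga

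The 4 genes with the motif and a ratio on every array had mean log2 ratios of 0.08 (Rpl14), 0.06 (Rpl35a), 0.05 (Eif2s3x) and -0.0041 (Eif3f), and none passed the test described below. A match is a description of the annotated start and not a measured transcript end, and a gene without one lacks only these letters at the annotated starts searched.

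Whether a ribosomal protein gene had any ratio at all varied widely between families. Exact zeros, which were treated here as missing, made up 10.8% of all probe-by-array values in the deposited table. Among ribosomal protein probes they made up 42.8% (177 of 414 values), and among translation factor probes 10.5% (31 of 294). The 40S proteins had the highest share, 61.6% (85 of 138), followed by the stalk proteins with 50% (9 of 18) and the 60S proteins with 32.2% (83 of 258). Among the factors, zeros were most frequent for eIF5A and eIF6 (33.3%), the elongation factors (23.8%) and eIF4 (16.7%). They made up 5.56% of values for eIF3 and for the eIF2 kinases, and there were none for eIF1 (0 of 24), eIF2 (0 of 24), eIF2B (0 of 18) and the elongation factor modifiers (0 of 30). What a zero stood for is not given in the sources used here, and spot intensities were not used, so the shares are not levels of expression.

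**Figure D1:**
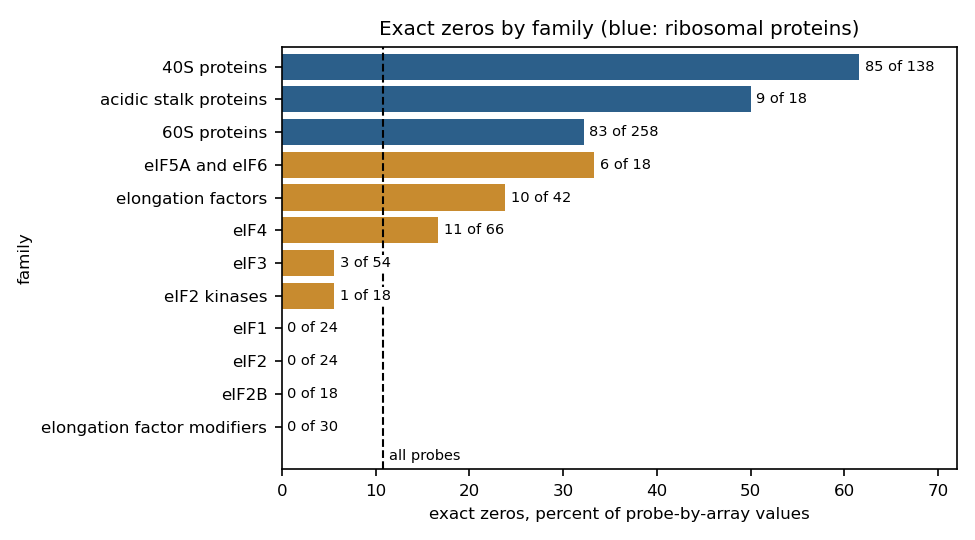
Share of exact zeros (percent of probe-by-array values, horizontal axis) in each family of ribosomal protein (blue) and translation factor (ochre) probes, with the counts beside the bars and the share over all probes as a dashed line. The 40S proteins reach 61.6% and 4 factor families have none, against 10.8% over all probes.

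Of the 69 ribosomal protein probes, 29 had a ratio on every array, 26 on some and 14 on none. The 14 without any ratio were Rpl4, Rpl7a, Rpl12, Rpl13a, Rpl35, Rpl37a, Rps4x, Rps6, Rps13, Rps14, Rps16, Rps21, Rps26 and Rps29. Rpl13a, used in many studies as a reference transcript, and Rps6, the substrate of S6 kinase, therefore gave no value. Zeros of ribosomal protein probes were unevenly spread over the arrays: 15 of 69 (21.7%) on the set 1 array on the Cy5 arrays, 22 and 30 on the 2 arrays of set 2, and 36 or 37 on the other 3. Over all probes the share ran only from 9.12% to 12.4% between arrays. Of the 49 factor probes, 41 were complete, 5 partial and 3 empty, the last being Eif5a, which encodes the factor that carries hypusine, Eef1b2, an exchange factor for elongation factor 1A, and the second of 2 Eif4enif1 probes.

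The 26 partial ribosomal protein probes held 63 ratios, between -0.44 and 0.70, with a median of -0.02. Most of these, 62 of 63, were smaller than 0.5 in size, and 25 of the 26 probes had a ratio on the set 1 Cy5 array. Rplp0, the stalk base and another common reference transcript, was measured once, at 0.22. Rps3, a 40S protein at the mRNA entry site, was measured at -0.05 and -0.26, both in set 1. Rpl38 had the widest spread of the partial probes with 5 ratios: -0.44, -0.12 and -0.10 on the Cy5 arrays, and 0.70 and 0.20 in the swapped arrays of sets 2 and 3. Its ratios were negative on every Cy5 array and positive on both swapped arrays that had one.

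For genes measured on all 6 arrays the 2 arrays of a set were averaged and the 3 set means were tested against 0 in limma across all 11231 features, with Benjamini-Hochberg adjustment and a threshold of 0.05. Over all features 1663 (14.8%) passed, 826 higher (7.35%) and 837 lower (7.45%) in treated cells. Of the 65 genes tested here 4 passed (6.15%), all of them initiation factors that were higher: Eif1a, Eif4a1, Eif6 and Eif4a2. None was lower. An unadjusted p under 0.05 was found for 15 of the 65 (23.1%, against 28% of all features), 10 with positive and 5 with negative means. Over all features 1492 were positive and 1658 negative at that p. With the 6 arrays as single values and the set as a block the count was 11, with 7 higher and 4 lower, when 2282 of all features (20.3%) passed. Without set 3 it was 0, when 563 of all features (5.01%) passed.

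None of the 29 ribosomal protein genes passed in limma, while 3 had an unadjusted p under 0.05, all with positive means (Rpl3, Rpl32 and Rpl7l1); over all features 28.0% did. Their mean log2 ratios ran from -0.40 to 0.17 with a median of 0.050, against -0.0041 over all features. Positive means were found for 5418 of all 11231 features and for 24 of these 29 genes. For 28 of 29 the 95% interval of the mean lay within a 1.3-fold change in either direction, as for 87.0% of all features. The exception was Rpl22l1, whose interval ran from -1.15 to 0.35. These intervals rest on the spread of 3 set means, so a difference between dye orientations that the sets share does not widen them. The median of the 23 genes for 60S proteins was 0.06 and that of the 5 genes for 40S proteins was 0.03, with fewer than 1 in 4 of the 40S probes complete (21.7%).

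Of the 60S proteins, Rpl3, which lies near the peptidyl transferase centre, had the highest mean. Its log2 ratios were 0.74, 0.01 and 0.29 on the Cy5 arrays of sets 1 to 3, and -0.28, 0.23 and 0.04 in the swapped arrays. The set 1 arrays held both the highest and the lowest value, and the mean of 3 sets was 0.17 ± 0.05 (SD, n = 3; limma adjusted p = 0.0621). Rpl32 read 0.26, 0.23 and 0.38 on the Cy5 arrays against -0.10, 0.02 and 0.04 swapped, a mean of 0.14 ± 0.07 (adjusted p = 0.127). Rpl7l1, a paralog of Rpl7 found in the nucleolus, read 0.14, 0.34 and 0.42 against -0.05, -0.05 and 0.03, a mean of 0.14 ± 0.09 (adjusted p = 0.15). In Rpl32 and Rpl7l1 every Cy5 array lay above every swapped array. With the swapped arrays alone the means of Rpl3, Rpl32 and Rpl7l1 were -0.0034, -0.01 and -0.02.

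Rpl11, which also binds the p53 regulator Mdm2 outside the ribosome, was the only ribosomal protein gene with positive ratios on all 6 arrays. Its values were 0.01, 0.16 and 0.07 on the Cy5 arrays and 0.15, 0.15 and 0.06 swapped, a mean of 0.10 ± 0.05 (adjusted p = 0.23). That gene was singled out after its values were seen.

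Rpl22l1, a paralog that can replace Rpl22 in the 60S subunit, had the most negative mean of the ribosomal protein genes, -0.40 ± 0.93 (SD, n = 3; adjusted p = 0.476). The ratios were -0.37, -0.04 and -1.62 on the Cy5 arrays of sets 1 to 3 and 0.13, 0.76 and -1.26 in the swapped arrays. Both arrays of set 3 were far below 0, in either dye orientation, and no array of sets 1 or 2 was below -0.37. Without set 3 the mean was 0.12 (adjusted p = 0.713), and without set 2 it was -0.78 (adjusted p = 0.0107), so that the direction rested on 1 set. Rpl22 itself, at 0.01 ± 0.20, showed no such split between set 3 and the others.

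Of the 40S proteins, Rps28, near the mRNA exit channel, read -0.31, -0.01 and -0.04 on the Cy5 arrays and 0.28, 0.73 and 0.21 swapped, a mean of 0.14 ± 0.19 (adjusted p = 0.302). Every Cy5 array was below 0 and every swapped array above it. The other 4, Rps7, Rps20, Rps25 and Rps27l (a paralog of Rps27), had means between 0.0065 and 0.06. Rplp1, the 1 stalk protein measured throughout, had ratios from -0.07 to 0.20 and a mean of 0.050 ± 0.07 (adjusted p = 0.579).

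**Figure D2:**
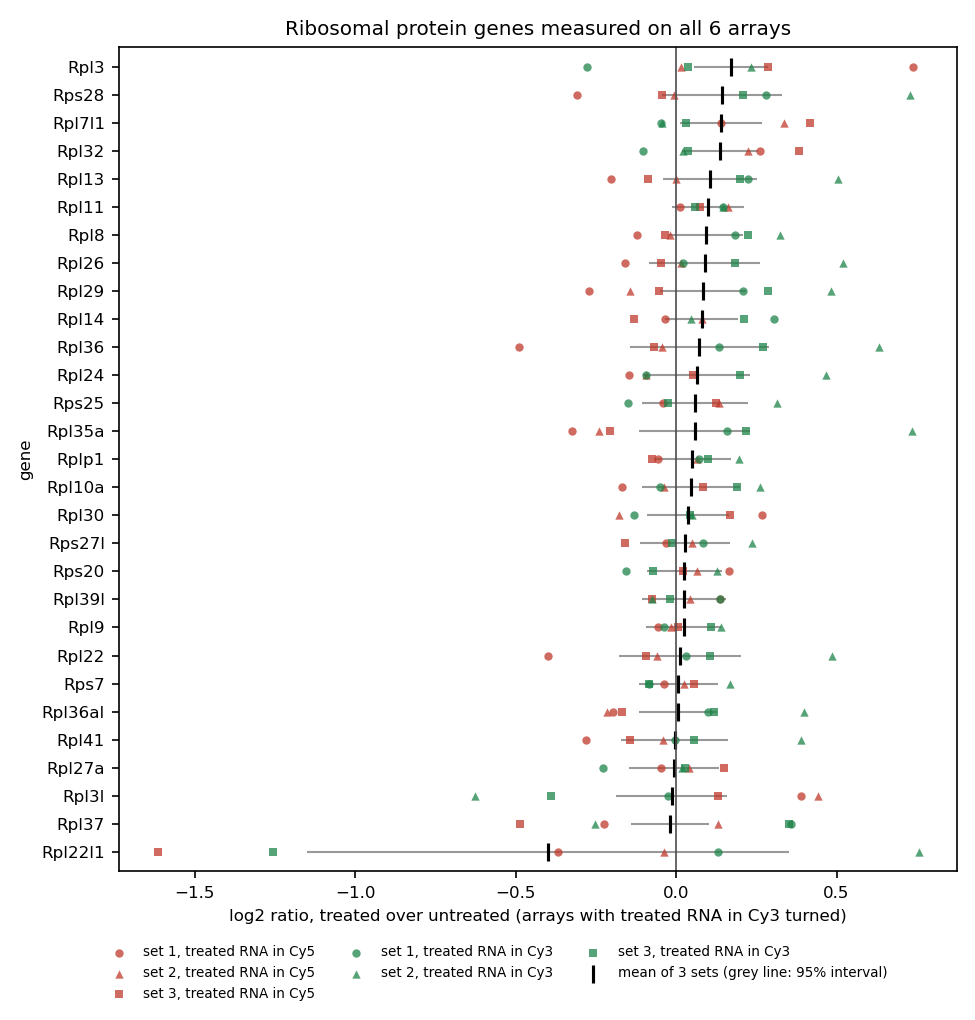
Log2 ratio of treated over untreated RNA (horizontal axis) for the 29 ribosomal protein genes measured on all 6 arrays, ordered by mean; symbols are single arrays (shape for the set, red for treated RNA in Cy5, green for treated RNA in Cy3), black bars the mean of 3 sets and grey lines its 95% interval. Most means lie between -0.02 and 0.17, green triangles (set 2, swapped) are often farthest right, and Rpl22l1 is far below 0 on both set 3 arrays only.

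The ribosomal protein genes differed between dye orientations and between arrays. Their median was -0.04 over the Cy5 arrays and 0.12 over the swapped arrays, against 0.0078 and -0.02 over all features. In 9 of 29 (31.0%) all 3 ratios of one orientation were above 0 and all 3 of the other below it, compared with 13.1% of all features. Rpl35a had the largest distance between orientation means in this direction: -0.32, -0.24 and -0.20 on the Cy5 arrays against 0.16, 0.74 and 0.22 swapped. Its mean over sets was 0.06 ± 0.17. Rpl3l, a paralog of Rpl3 known from muscle, was split the other way and read 0.39, 0.44 and 0.13 against -0.03, -0.63 and -0.39, a mean of -0.01 ± 0.17.

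A single array stood out among the 6. On the swapped array of set 2 the median of the 29 genes was 0.24, and 25 were positive, against 5461 of 11231 features. Of the 29, 18 (62.1%) had their highest ratio there, against 27.7% of all features. On the other 5 arrays the median lay between -0.06 and 0.0995. The medians by set were -0.01, 0.14 and 0.05. With set 2 represented by its Cy5 array alone the median over sets was 0.0044, and without set 2 it was 0.0048. The first of these settings leaves the orientations unbalanced, so a difference between them does not cancel. The part that dye or array effects had in the positive median was not tested beyond these values. Fitted as a term across the 6 arrays in limma, the dye effect passed the threshold in 0 of the 65 genes and in 56 of all features (0.499%). At an unadjusted p under 0.05 it stood out in 25 of 65 (38.5%) and in 25.2% of all features, and the lowest adjusted p among the 65 was 0.0529.

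**Figure D3:**
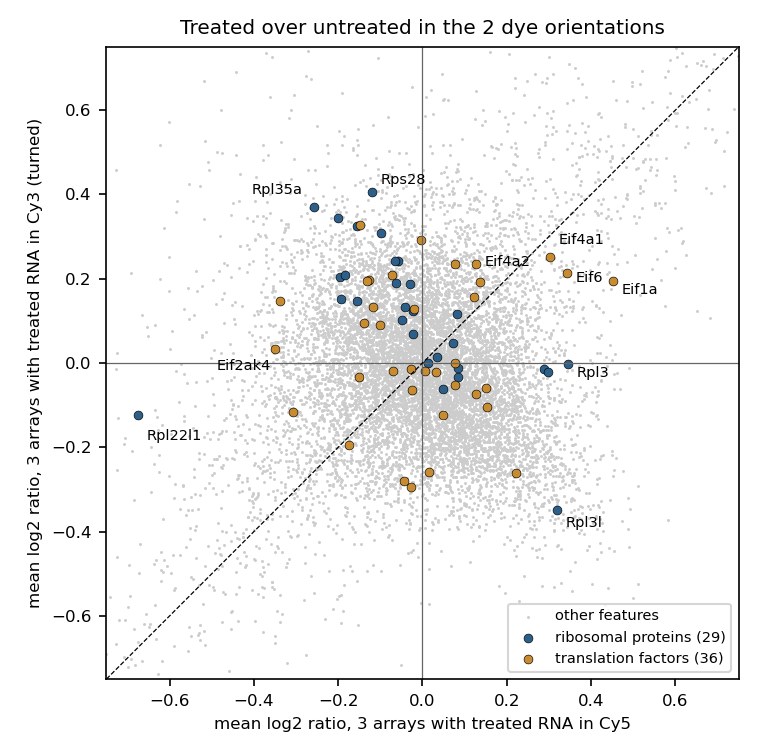
Mean log2 ratio over the 3 Cy5 arrays (horizontal) against the mean over the 3 swapped arrays, turned to the same direction (vertical), for 29 ribosomal protein genes (blue), 36 translation factor genes (ochre) and all other features (grey; those beyond 0.75 in size are outside the frame). Points on the dashed diagonal have equal ratios in both orientations: Eif4a1, Eif6 and Eif1a lie at the right above 0 in both, while most blue points lie left of 0 and above it.

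Translation factors had a median log2 ratio of 0.010. The mean was positive for 5418 of all 11231 features and for 20 of the 36 factor genes. Of these genes 4 (11.1%) passed the test, all higher, against 14.8% of all features that passed and 7.35% that were higher. An unadjusted p under 0.05 was found for 12 (33.3%, against 28.0% of all features), 7 of them positive and 5 negative. The 95% intervals of 33 of 36 lay within a 1.3-fold change, and those of Eif1a, Eif4a1 and Eif6 reached above it.

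Eif4a1 and Eif4a2 encode closely related forms of the RNA helicase of the cap-binding complex. Eif4a1 had the smallest range over arrays of the 65 genes: 0.31, 0.29 and 0.30 on the Cy5 arrays of sets 1 to 3 and 0.26, 0.25 and 0.24 in the swapped arrays. All 6 values lay within 0.07 of each other, with no overlap between the orientations, and the mean was 0.28 ± 0.01 (SD, n = 3), 1.21-fold, at an adjusted p of 0.00898 in limma. Eif4a2 read 0.06, 0.17 and 0.15 against 0.24, 0.29 and 0.18, positive on every array but lowest on set 1 Cy5, with a mean of 0.18 ± 0.04, 1.13-fold (adjusted p = 0.0478). Its call was lost without any 1 set (adjusted p from 0.093 to 0.256), while that of Eif4a1 was lost without set 3 (0.11) and within each orientation (0.0577 on the Cy5 arrays, 0.0801 swapped). With set 2 from its Cy5 array alone, which leaves the orientations unbalanced, both calls were lost in limma (0.054 for Eif4a1, 0.216 for Eif4a2).

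The RefSeq window upstream of Eif4a1 held the E-box CACGTG, the palindromic site that Myc-family and related factors are known to bind, which reads alike on both strands. It is shown because Eif4a1 was the only gene of the 4 with this site in a window that could be searched; the windows of Eif1a and Eif6 were not searched. The stretch runs from 250 bases before the annotated start to 20 bases after it, with the site in capitals.
Eif4a1, chr11:69672404-69672673, minus strand, GRCm38.p6: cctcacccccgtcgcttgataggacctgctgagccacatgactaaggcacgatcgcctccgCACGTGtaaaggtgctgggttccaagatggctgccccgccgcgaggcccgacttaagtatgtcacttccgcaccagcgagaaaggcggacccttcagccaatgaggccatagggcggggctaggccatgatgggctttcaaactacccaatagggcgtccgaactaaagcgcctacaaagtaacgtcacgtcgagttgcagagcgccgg

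The same letters were found, in windows from 250 bases before to 50 after the start, for 9 of 33 factor genes (27.3%), 6 of 57 ribosomal protein genes (10.5%) and 2187 of all genes (8.09%). As for the pyrimidine start, any window of a gene could count, and all genes are those with a window, on the array or not. Of the 9 factor genes, 7 were tested. Eif4a1 rose, and Eif3a, Eif3f, Eif3k, Eif1b, Eef2k and Eef1aknmt did not pass, with means between -0.18 and 0.07. The median of those 7 was -0.0041 and that of the 21 tested factor genes without the site was 0.0080. The site is a match of letters and not a measured binding.

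Eif1a encodes a form of the scanning factor eIF1A. Its ratios were 0.44, 0.42 and 0.50 on the Cy5 arrays and 0.18, 0.15 and 0.26 swapped. Every array was positive, each Cy5 array lay above every swapped array, and the mean was 0.32 ± 0.05 (SD, n = 3), 1.25-fold (adjusted p = 0.00631), the highest of the 65 genes. Without set 3 the adjusted p was 0.0969, and on the swapped arrays alone it was 0.132. Eif1ax, the X-linked gene for a nearly identical protein, read -0.11, -0.18 and -0.10 against 0.12, 0.30 and 0.17, a mean of 0.04 ± 0.03 (adjusted p = 0.673). Cross-hybridisation between such copies was not tested, since probe sequences were not used. Eif1b and Eif1ad, further genes of the eIF1 names, had means of 0.02 and -0.05.

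Eif6 encodes the factor that keeps a new 60S subunit from joining the 40S subunit until it is released. Averaged over its 2 probes it read 0.35, 0.39 and 0.29 on the Cy5 arrays and 0.27, 0.15 and 0.21 swapped. The values were positive on every array and for each probe on every array, with probe means of 0.29 and 0.27. The mean of 3 sets was 0.28 ± 0.03, 1.21-fold (adjusted p = 0.00984), and the call was lost without set 3 (0.103) and within each orientation (0.0502 and 0.119).

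**Figure D4:**
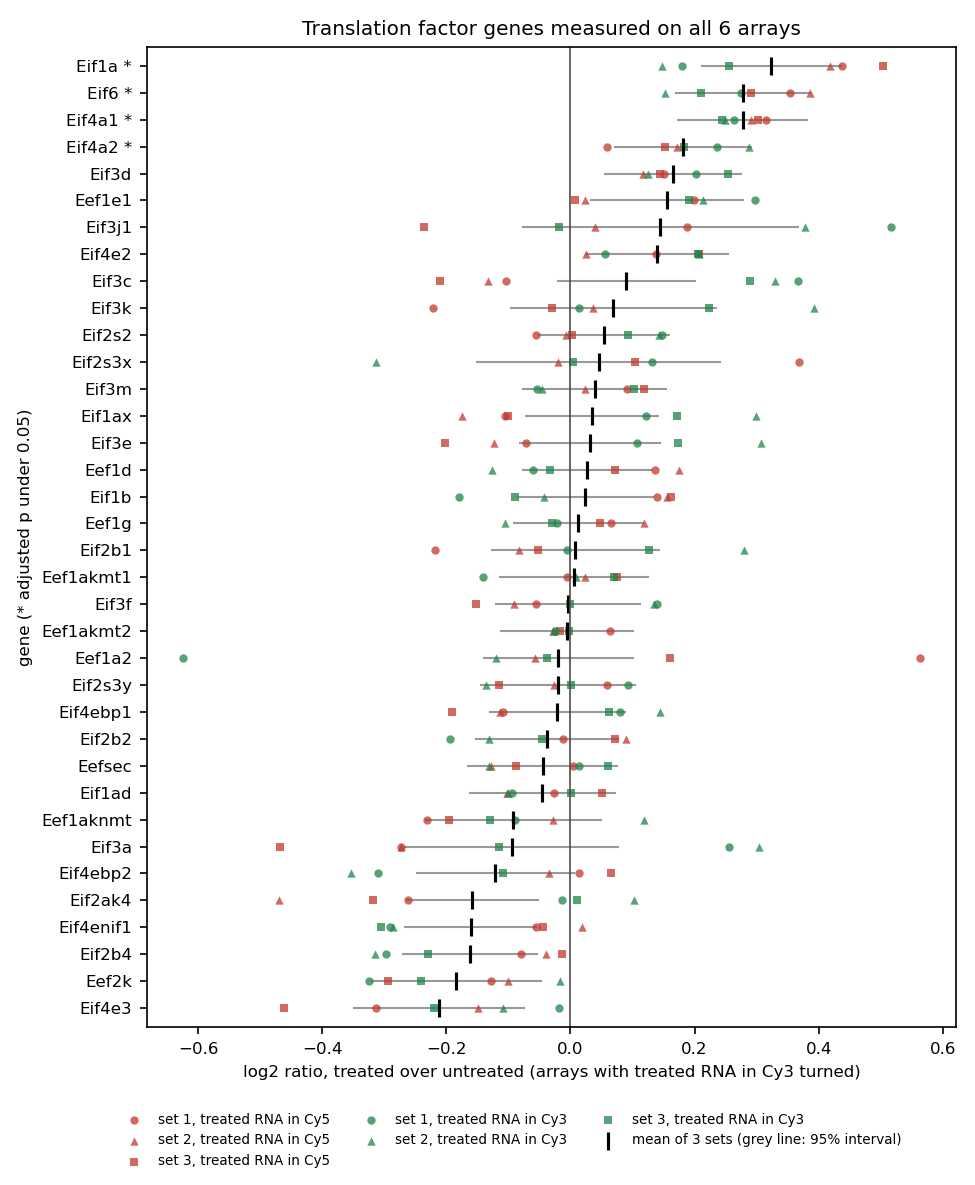
Log2 ratio of treated over untreated RNA (horizontal axis) for the 36 translation factor genes measured on all 6 arrays, ordered by mean, with symbols as for the ribosomal protein genes; an asterisk marks an adjusted p under 0.05. The 4 marked genes are positive on all 6 arrays, and Eif4e3, Eef2k and Eif2b4 at the bottom are negative on all 6.

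The proteins that bind the cap or hold the cap-binding protein in check did not pass the test. Eif4e, the cap-binding protein itself, lacked a ratio on the swapped array of set 1, and its other 5 ratios were between -0.21 and 0.09 with a mean of -0.04. Eif4e3, a divergent cap-binding relative, had the lowest mean of the factors. It read -0.31, -0.15 and -0.46 on the Cy5 arrays and -0.02, -0.11 and -0.22 swapped, below 0 on every array and lowest in set 3 of either orientation. The mean was -0.21 ± 0.11, 1.16-fold lower (adjusted p = 0.0595; with the set as a block 0.0197). Eif4e2, a second relative known to repress bound mRNAs, was above 0 on all 6 arrays as the average of its 2 probes, from 0.02 to 0.21, with a mean of 0.14 ± 0.06 (adjusted p = 0.114; with the set as a block 0.031). Of these probes 1 was positive on every array, and the other ran from -0.06 on the Cy5 array of set 2 to 0.38 on its swapped partner.

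Eif4ebp1, the inhibitor released by mTOR phosphorylation, read -0.11, -0.11 and -0.19 against 0.08, 0.14 and 0.06. The signs followed the dye, and the mean of -0.02 ± 0.04 had an interval from -0.13 to 0.09. Eif4ebp2, its paralog, read 0.01, -0.04 and 0.07 against -0.31, -0.35 and -0.11, a mean of -0.12 ± 0.09 (adjusted p = 0.201), and was lower on the swapped arrays. Eif4enif1, which carries the cap-binding protein into the nucleus, had ratios from -0.06 to 0.02 on the Cy5 arrays and from -0.31 to -0.29 swapped, a mean of -0.16 ± 0.02 (adjusted p = 0.0627; with the set as a block 0.0317). Eif4g2, a scaffold that does not bind the cap-binding protein, had 2 ratios, 0.04 and 0.0030. The scaffold Eif4g1 had no probe with that symbol here.

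Among the proteins around eIF2, none passed. The eIF2 subunit genes Eif2s2, Eif2s3x and Eif2s3y had means of 0.05, 0.05 and -0.02. Eif2s3x was the least even, from -0.31 on the swapped array of set 2 to 0.37 on the Cy5 array of set 1. In eIF2B, the exchange factor, Eif2b4 was negative on every array: -0.08, -0.04 and -0.01 on the Cy5 arrays and -0.30, -0.31 and -0.23 swapped, with no overlap between orientations. Its mean was -0.16 ± 0.04, 1.12-fold lower (adjusted p = 0.0647; with the set as a block 0.0262). Eif2b1 and Eif2b2 had means of 0.0080 and -0.04.

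Of the kinases that phosphorylate eIF2, Eif2ak4 (GCN2, which senses uncharged tRNA) read -0.26, -0.47 and -0.32 on the Cy5 arrays and -0.01, 0.10 and 0.01 swapped. The orientations did not overlap, the mean was -0.16 ± 0.02 (adjusted p = 0.0657), and the 2 probes had means of -0.08 and -0.23. On the swapped arrays alone the mean was 0.03. Taking only the probe with the smaller spread between sets gave -0.23 with an adjusted p of 0.0163. That choice used the same spread as the test, which favours a low p, and is no independent check. Keeping exact zeros as ratios gave an adjusted p of 0.0446. Eif2ak3 (PERK, which senses unfolded proteins in the endoplasmic reticulum) had 5 ratios from -0.50 to 0.49 with a mean of -0.09. Genes with the symbols Eif2s1, Eif2b5, Eif2ak1, Eif1, Eif5 and Eef2 were not analysed here, as no probe carried those symbols alone.

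The 8 tested subunits of eIF3, the scaffold of the scanning complex, had a median of 0.05 and none passed. Eif3d, a subunit that can itself bind the cap of some mRNAs, came nearest. It read 0.15, 0.12 and 0.14 on the Cy5 arrays and 0.20, 0.12 and 0.25 swapped, above 0 on every array, with a mean of 0.17 ± 0.04, 1.12-fold (adjusted p = 0.0627; with the set as a block 0.00927). Eif3c, a core subunit, had the lowest adjusted p of the 65 genes for the dye term. Its values were -0.10, -0.13 and -0.21 against 0.37, 0.33 and 0.29, and the mean of 0.09 ± 0.05 (adjusted p = 0.276) averaged opposite signs. Eif3e had signs split the same way. Eif3j1 spanned sets instead: both set 1 arrays were positive (0.19 and 0.52), as were both of set 2 (0.04 and 0.38), and both of set 3 were negative (-0.24 and -0.02).

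None of the 5 tested elongation factors passed, and 1, Eef1e1, had an unadjusted p under 0.05. Eef1a1, which delivers aminoacyl-tRNA and is among the most abundant mRNAs of most cells, had only 2 ratios, 0.10 and 0.07, both on the Cy5 arrays. Eef1d and Eef1g, subunits of its exchange complex, had means of 0.03 ± 0.0094 and 0.01 ± 0.0082, with positive ratios on every Cy5 array and negative ones on every swapped array. Eef1a2, the form of muscle and neurons, had the widest range of the factors, from -0.62 on the swapped array of set 1 to 0.56 on its Cy5 partner, and a mean of -0.02. Eefsec, which delivers selenocysteine, had a mean of -0.04. Eef1e1, a scaffold of the synthetase complex, was positive on all 6 arrays, from 0.0081 to 0.30, with a mean of 0.16 ± 0.08 (adjusted p = 0.103; with the set as a block 0.0342).

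Eef2k, the kinase that inactivates elongation factor 2, read -0.13, -0.10 and -0.29 on the Cy5 arrays and -0.32, -0.02 and -0.24 swapped. All 6 averages were negative, with a mean of -0.18 ± 0.11, 1.14-fold lower (adjusted p = 0.0878; with the set as a block 0.0245, and without set 2 0.0184). Its 2 probes disagreed by array: 1 ran from -0.51 to 0.34 and was positive only on the swapped array of set 2, and the other ran from -0.37 to 0.28 and was positive on the Cy5 arrays of sets 1 and 2. The 3 methyltransferases of elongation factor 1A that were tested had means of 0.0052 (Eef1akmt1), -0.0057 (Eef1akmt2) and -0.09 (Eef1aknmt).

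Genes of the surrounding pathway were taken from lists chosen with earlier results known. Ribosome biogenesis factors, which process rRNA and assemble subunits in the nucleolus, had a median of 0.08 over 59 tested. Of the 59, 10 (16.9%) rose and 0 fell. Over all features 7.35% were higher and 14.8% passed in either direction. The 5 with the largest means were the pre-40S kinase Riok2 (0.37 ± 0.04, adjusted p = 0.00348), the 60S assembly GTPase Gnl2 (0.26 ± 0.05, 0.0157), Nop16 (0.25 ± 0.07, 0.0192), Noc3l (0.22 ± 0.02, 0.0217) and Sbds (0.22 ± 0.04, 0.026). Sbds acts with a GTPase to release Eif6 from the 60S subunit. The count was 2, 4 and 1 without sets 1, 2 and 3, when 9.4%, 15% and 5.01% of all features passed. These shares and those that follow are for either direction. It was 3 on the swapped arrays alone and 0 on the Cy5 arrays alone (5.83% and 5.69% of all features), and 0 with set 2 from its Cy5 array alone (6.54%). It was 12 with the set as a block (20.3%) and 13 with a dye term (16.6%). The median was 0.03 on the Cy5 arrays and 0.14 on the swapped arrays. Of these 5 genes, only Riok2 kept its call with each set left out. The difference between these genes and the ribosomal proteins was not tested.

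Among 17 tested genes of mTOR and the kinases of translation, 3 passed (17.6%, against 14.8% of all features): Rictor rose and Ddit4 and Deptor fell. Rictor, a subunit of mTOR complex 2, had set means of 0.56, 0.58 and 0.39 (mean 0.51 ± 0.11, adjusted p = 0.00218). Ddit4, an inhibitor of mTOR complex 1, had set means of -0.80, -0.67 and -0.62 (mean -0.70 ± 0.09, adjusted p = 0.000515), and all 6 arrays were negative. Deptor, which binds mTOR and inhibits it, had set means of -0.22, -0.47 and -0.21 (mean -0.30 ± 0.15, adjusted p = 0.0284). The call for Deptor was lost without set 1 (0.0687), without set 3 (0.125), with zeros kept (0.144) and within each orientation (0.152 on the Cy5 arrays, 0.0888 swapped).

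The integrated stress response is the program set off by eIF2 phosphorylation. Against 7.35% of all features that were higher, 4 of its 12 tested genes (33.3%) rose. These were Nupr1 (1.55 ± 0.11, adjusted p = 2.65e-05), Atf3 (0.99 ± 0.24, 0.00104), the eIF2 phosphatase subunit Ppp1r15a (0.67 ± 0.08, 5e-04) and Ddit3 (0.48 ± 0.09, 0.00216), each positive on all 6 arrays. Atf3 and Ppp1r15a are also known as LPS-response genes. Of the 8 that did not pass, Atf4 (0.16 ± 0.06, adjusted p = 0.0862) and Asns (0.16 ± 0.03, 0.0716) were positive on all 6 arrays. The means of Vldlr, Chac1, Shmt2 and Cebpg were 0.13, 0.12, 0.02 and 0.0088. Those of Impact and Phgdh were negative, at -0.13 and -0.0084. On the swapped arrays alone the adjusted p of Ddit3 in limma was 0.0686, and with zeros kept that of Atf3 was 0.0544. With the set as a block 6 of the 12 genes rose, when 20.3% of all features passed in either direction. In termination, recycling and poly(A) binding, 1 of 12 rose (8.33%), near the 7.35% of all features that were higher. It was the release factor Etf1 (0.37 ± 0.09, adjusted p = 0.00644 in limma). Its adjusted p was 0.0905 without set 3, 0.0951 on the Cy5 arrays alone and 0.0594 with zeros kept. None of 12 cytosolic aminoacyl-tRNA synthetase genes passed in limma, and 2 of these, Cars (0.19 ± 0.07, adjusted p = 0.0545) and Nars (0.15 ± 0.05, 0.093), had an unadjusted p under 0.05. In the main test 14.8% of all features passed. With the set as a block, or with a dye term, 2 of the 12 passed, when 20.3% and 16.6% of all features did. Fau, a 40S protein with a name outside the rule, had a mean of 0.08 ± 0.15 (adjusted p = 0.527), among the values of the named ribosomal proteins.

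**Figure D5:**
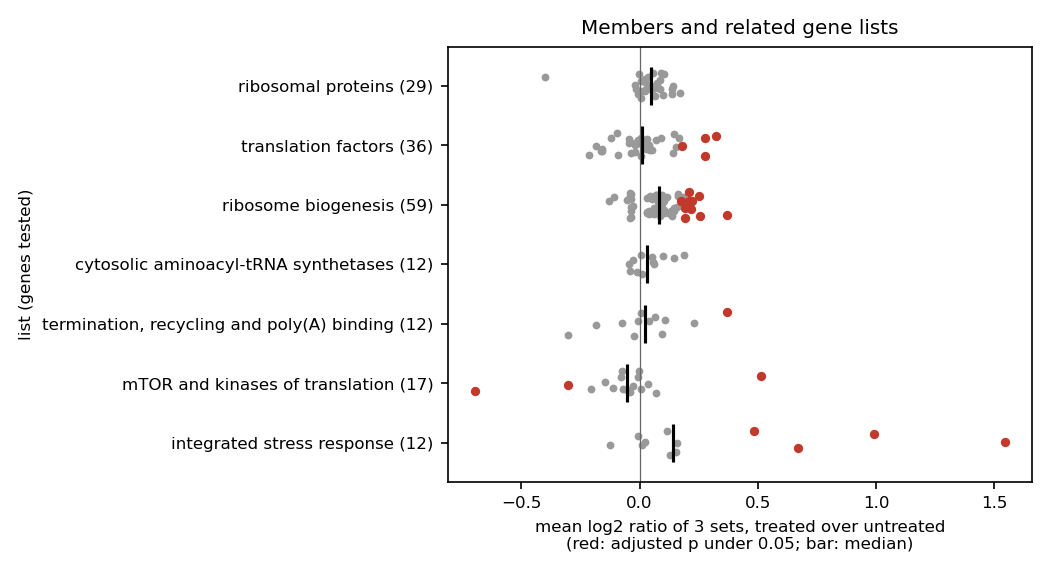
Mean log2 ratio of 3 sets (horizontal axis) for each tested gene of the ribosomal proteins, the translation factors and 5 lists of related genes, with genes at an adjusted p under 0.05 in red and the median of each list as a bar; vertical scatter within a list has no meaning. No ribosomal protein is red, the red factors lie between 0.18 and 0.32, and the stress response and mTOR lists hold single genes out to 1.55 and -0.70.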

How the data were processed

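Values were used as deposited in the series table: log2 ratios of the 2 channels, 1 per probe and array, made by the authors. The log base was read from the values. No header or label used here states the scanner, the background correction or the dye normalization. Exact zeros were treated as missing. Ratios of the swapped arrays (treated RNA in Cy3) were multiplied by -1, complete probes of a gene were averaged, probes without a single symbol stayed as separate features, and the 2 arrays of a set were averaged (n = 3). Set means were tested against 0 with limma 3.58.1 (lmFit, eBayes; prior degrees of freedom 4.16) in R 4.3.3, two-sided, on all 11231 features, with Benjamini-Hochberg adjustment; the script was tested on simulated data.

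Arrays were paired by their set numbers alone. Before turning, the departures of the 2 arrays of a set correlated at 0.41, 0.45 and 0.15 in sets 1 to 3. Turning changes the sign of the swapped array, so these positive values do not show that a set shared its RNA. Whether it did was not tested. The main test averages over the set, and fits on single arrays with and without the set as a block were alternatives, as were a dye term, each orientation alone, each set left out, centring, scaling, zeros kept, missing values allowed, 1 probe per gene and robust moderation. The 1 probe kept per gene was that with the smallest spread between set means, a choice that favours a low p.

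Named genes were every member past the threshold, fixed regulators and reference genes (Eif4e to Rps3), and up to 5 past the threshold per direction of each related list; others were named after their values were seen. Members and lists were chosen with earlier results of these data known. Table columns of other series numbered 0. Sequences are from RefSeq (GRCm38.p6). The number of arrays limits the precision.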

Additional observations from a re-analysis of the deposited data

How the results depend on the processing

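The main count of 4 genes past the threshold, all translation factors, was 11 with single arrays and the set as a replicate block (20.3% of all features; 7 higher and 4 lower; Eif3d, Eef1e1 and Eif4e2 were added as higher and Eif4e3, Eif4enif1, Eif2b4 and Eef2k as lower). The set entered that fit with an estimated correlation of -0.441 between its arrays, and a negative correlation lowers the error of the mean. With a dye term the estimate was -0.0552. With the share of all features in brackets, the count was 5 without a block (12.3%), 8 with a dye term (16.6%), 1 on the Cy5 arrays alone (5.69%), 0 on the swapped arrays alone (5.83%), and 0 to 6 with a set left out (5.01% to 15%; factors alone 0 to 5). Alternatives chosen after seeing the data gave 10 (dye term with the set as a block, 17.2%) and 2 (set 2 from its Cy5 array alone, 6.54%). The latter leaves the orientations unbalanced. Of the remaining alternatives, centring gave 4 (14.9%), scaling 3 (13.2%), robust moderation 4 (14.6%) and 1 probe per gene 5 (15.6%). With zeros kept the count was 4 of 112 genes (7.27%), and with missing values allowed 3 of 71 (11.9%). The count of ribosomal proteins was 0 under all alternatives run, except 1 without set 2 (Rpl22l1), so leaving out a set gave 0 to 1. A single orientation or a missing set left fewer arrays, and the fits with a block or a dye term kept all 6. The cause of these changes was not tested.

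The median of ribosomal proteins turned to -0.0416 on the Cy5 arrays alone, was 0.0065 over 69 genes with zeros kept, and ran from 0.0048 to 0.1095 with a set left out. That of factors turned to -0.0115 on the Cy5 arrays alone and to -0.0015 with set 2 from its Cy5 array alone. It was 0.017 on the swapped arrays, 0.0052 with zeros kept, 0.0184 with 1 probe per gene and 0.0064 to 0.0151 with a set left out. The sign of the mean differed from that over sets in 17 of 65 genes on the swapped arrays alone (24.9% of all features) and in 28 of 65 on the Cy5 arrays alone (27.4%). Among the genes named by rule or at an unadjusted p under 0.05, those on the swapped arrays were Eif2ak4 (0.0333), Eif4ebp1 (0.0953), Rpl3 (-0.0034), Rpl32 (-0.0146) and Rpl7l1 (-0.0209). On the Cy5 arrays it was Eif4ebp2 (0.015). With a set left out, Eif4ebp1 ran from -0.0395 to 3e-04 and Rpl22l1 from -0.7781 to 0.1204, each positive only without set 3. Eif4a2 also lost its call with arrays scaled to one spread (adjusted p = 0.0593), with zeros kept (0.0604) and with missing values allowed (0.0654). With no signal over background, a ratio near 0 and an unmeasured probe cannot be weighed by brightness.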
